A study of Mus musculus with 6 samples.

Results

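The genes described here are 59 genes that carry out DNA replication and mitosis, out of 55573 genes in the deposited table of mouse liver. They were taken by gene name from a list, 30 acting in DNA replication and 29 in mitosis, with no filter on low values, and each name had 1 row. The values come from polyA RNA libraries of whole liver from generation 3 mice of 2 genotypes. The 3 libraries labelled p21TKO came from mice described as lacking p21 (Cdkn1a), mTR (the telomerase RNA gene) and Wrn (a RecQ helicase gene). The 3 libraries labelled DKO came from mice described as lacking mTR and Wrn, so by their labels both groups share those deletions and no mouse labelled with intact mTR or Wrn is among them. The study asked which pathways change when p21 is lost, and described the p21TKO mice as already progeroid and the DKO mice as their control. The labels state no sex, and every title carries the code 2M, which they do not explain. They do not tie replicates to different animals. Y-linked transcripts were read in some libraries of each group and not in others (below), so each group holds more than 1 animal. Which libraries share an animal is not given, and the p-values below reflect library-to-library spread that may be partly technical.

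DNA replication starts at origins, where ORC, CDC6 and CDT1 load the MCM2-7 helicase, and CDC45 and GINS then switch it on. E2F transcription factors drive many of these genes as a cell leaves G1. Genes of mitosis are held off in resting cells by the DREAM complex and are switched on late in the cycle by the MMB complex and FOXM1. The p21 protein inhibits cyclin-dependent kinases, which keeps RB and its relatives able to hold E2F targets down. Hepatocytes of an adult liver are mostly quiescent, and these genes are known to rise there after injury or partial removal of the liver.

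The promoters of the 2 kinds of gene held the letters of known regulators in different shares. RefSeq promoters (GRCm38.p6, from 250 bases before to 50 bases after the start) were found for 49 members, as 56 promoters, and were searched on both strands. The E2F letters TTTCGCGC, TTTGGCGC, TTTCCCGC or TTTGCCGC stood in 35.5% of 31 promoters of replication members and 4.0% of 25 promoters of mitosis members, against 2.26% of all 32851 promoters. The letters of the cell cycle genes homology region (CHR), TTTGAA or TTCGAA, stood in 16.1% of replication and 76.0% of mitosis promoters, against 19.2% of all promoters. The NF-Y box letters CCAAT stood in 64.5% of replication and 80.0% of mitosis promoters, against 37.4% of all. These are matches of letters, not measured binding.

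**Figure D1:**
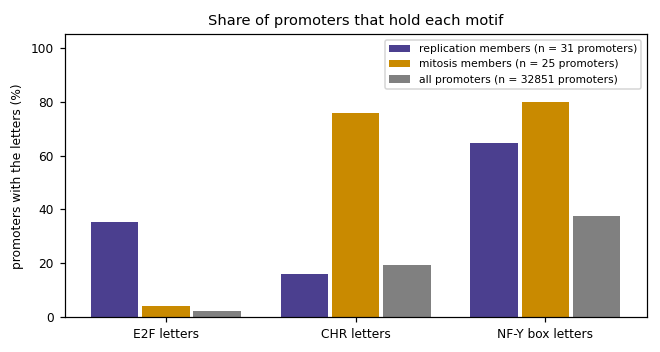
Share of promoters (percent) that hold the E2F, CHR or NF-Y box letters on either strand, for replication members, mitosis members and all RefSeq promoters of mouse. The E2F letters reach 35.5% in replication members and the CHR letters 76.0% in mitosis members.

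Promoters are printed for Mcm6 and Pola1, helicase and polymerase members whose groups did not overlap, for Mcm10, the member with the widest range, and for 2 mitosis members that show the CHR letters. Each is the 250 bases before the start, read 5′ to 3′ on the strand of the gene, with E2F, CHR and CCAAT matches of either orientation in capitals.
Mcm6, chr1:128359706-128359955, minus strand: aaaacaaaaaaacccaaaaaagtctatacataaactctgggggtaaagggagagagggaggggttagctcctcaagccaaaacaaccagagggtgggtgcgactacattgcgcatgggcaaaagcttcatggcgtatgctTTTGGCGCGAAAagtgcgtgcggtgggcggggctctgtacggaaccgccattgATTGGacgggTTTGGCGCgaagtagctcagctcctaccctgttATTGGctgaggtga
Mcm10, chr2:5012792-5013041, minus strand: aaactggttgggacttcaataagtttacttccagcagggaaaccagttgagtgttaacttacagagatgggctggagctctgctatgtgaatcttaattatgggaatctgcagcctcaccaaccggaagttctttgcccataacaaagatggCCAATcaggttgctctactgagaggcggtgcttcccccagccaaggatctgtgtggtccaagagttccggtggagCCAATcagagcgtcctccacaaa
Pola1, chrX:93632156-93632405, minus strand: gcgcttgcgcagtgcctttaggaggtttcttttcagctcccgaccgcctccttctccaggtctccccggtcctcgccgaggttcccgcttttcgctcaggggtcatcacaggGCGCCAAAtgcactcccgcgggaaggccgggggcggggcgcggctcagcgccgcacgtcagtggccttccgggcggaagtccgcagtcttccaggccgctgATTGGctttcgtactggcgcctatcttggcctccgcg
Cdk1, chr10:69352913-69353162, minus strand: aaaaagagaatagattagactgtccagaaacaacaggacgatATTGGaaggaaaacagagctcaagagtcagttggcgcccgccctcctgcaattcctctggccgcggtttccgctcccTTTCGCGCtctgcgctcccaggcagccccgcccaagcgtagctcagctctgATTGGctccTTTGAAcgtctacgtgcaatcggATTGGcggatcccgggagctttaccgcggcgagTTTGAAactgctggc
Ccnb2, chr9:70421555-70421804, minus strand: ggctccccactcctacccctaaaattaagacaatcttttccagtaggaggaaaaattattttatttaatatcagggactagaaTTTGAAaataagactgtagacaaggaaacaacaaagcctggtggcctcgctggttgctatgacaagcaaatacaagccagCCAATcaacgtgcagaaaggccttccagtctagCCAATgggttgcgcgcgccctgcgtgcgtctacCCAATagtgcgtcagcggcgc
The Mcm6 window held 3 E2F matches, 2 of which overlap, and 2 CCAAT matches, and the Mcm10 window held 2 CCAAT matches alone. The Pola1 window held 1 E2F match, and the Cdk1 window held 1 E2F match and 2 CHR matches.

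The level of these genes was low in every library. FPKM scales reads by exon length and by the reads counted in a library, and 7 of the 59 members averaged at least 1 FPKM over the 6 libraries. The median member averaged 0.138 FPKM. Replication members averaged between 0.0086 and 12.5 FPKM, with a median of 0.564, and mitosis members between 0.0048 and 1.22 FPKM, with a median of 0.0645. FPKM denominators ran from 19363284 to 27061292 reads, and the whole reads behind each value could be recovered. All mitosis members together had 394, 251 and 260 reads in p21TKO replicates 1 to 3, against 463, 412 and 222 reads in DKO replicates 1 to 3. Of the 59 members, 13 had no read in at least 1 library. Mki67, the source of the Ki-67 proliferation antigen, had 11, 12 and 12 reads in the libraries labelled p21TKO, against 30, 19 and 6 reads in those labelled DKO.

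**Figure D2:**
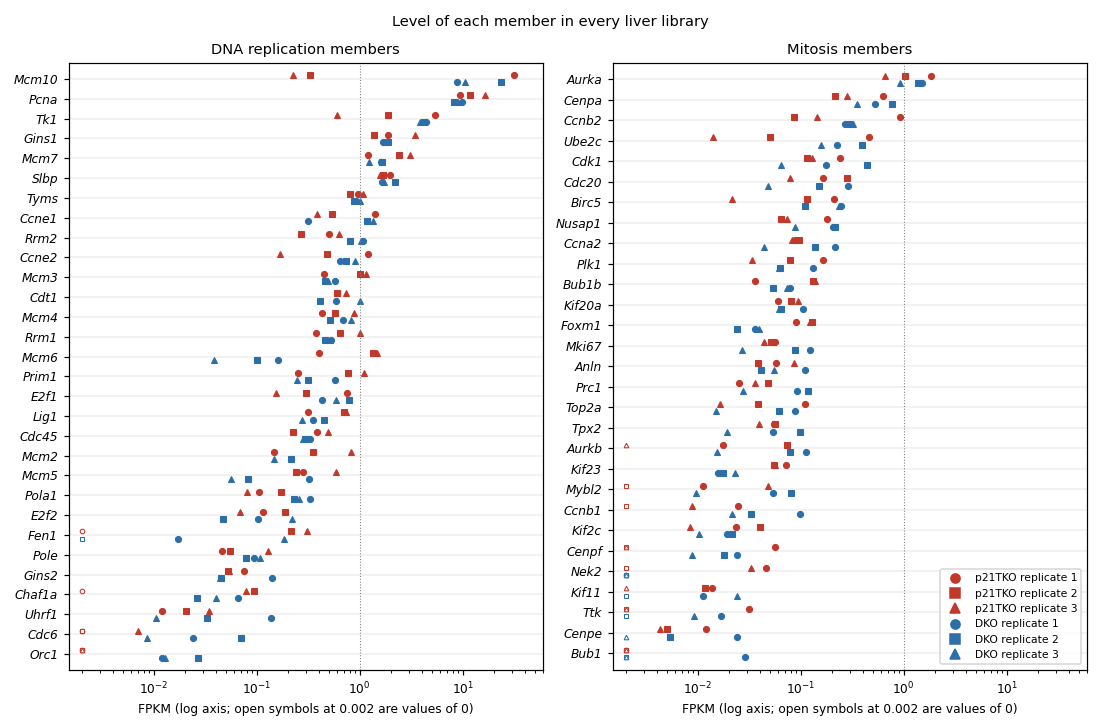
FPKM (log axis) of each replication member (left) and mitosis member (right) in the 3 p21TKO libraries (red) and 3 DKO libraries (blue), with open symbols for values of 0 and a dotted line at 1 FPKM. Of the 29 mitosis members, 28 averaged under 1 FPKM.

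The labels and the libraries were checked on named genes. Cdkn1a stood at 1.41, 11.05 and 6.50 FPKM in the libraries labelled p21TKO, against 0.761, 1.79 and 0.405 FPKM in those labelled DKO, so it goes against the label (limma, 1.66 in log2, adjusted p = 0.523). Wrn had 36 to 48 reads in every library, so its deletion was not visible as missing reads and rests on the labels too. Terc, the mTR gene, had 0 reads in every library. In polyA RNA, and with no library labelled with intact mTR to compare, this does not check the mTR deletion. Values of Cdkn1a and Wrn span the whole gene, and which part was deleted is not known here. The groups are therefore named by label throughout, and every direction rests on those labels. Alb, the albumin gene, stood between 24412 and 37503 FPKM, as whole liver should give. Ddx3y, a Y-linked gene, was read in p21TKO replicate 1 and in DKO replicates 2 and 3, and in no other library. On the first principal component, with 57.2% of the variance, p21TKO replicates 2 and 3 scored 44.4 and 56.6, whereas the remaining p21TKO library and all DKO libraries scored -34.6 to -7.73.

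No member passed the test between the genotypes. Genes with a mean of at least 1 FPKM were tested on log2(FPKM + 1) with limma, and the 7 members among them had Benjamini-Hochberg adjusted p from 0.580 to 0.913. Of all 9538 genes tested, 0.0734% were called at an adjusted p under 0.05, 0.0315% in the higher and 0.0419% in the lower direction. limma called 0 members, with 0 at an unadjusted p under 0.05, where 9.38% of all genes were. A limma voom fit on recovered reads, for genes averaging at least 10 reads, held 37 members. It called 0 of them, with 2 at an unadjusted p under 0.05 beside 8.93% of all genes, and called 0.03% of its 13338 genes, 0.0075% higher and 0.0225% lower. Without any filter limma called 0 of 59, with 5 at an unadjusted p under 0.05 beside 7.2% of all genes, and called 0.00415% of 24082 genes. Leaving out p21TKO replicate 1, limma called 1 of the 7 members, Mcm10, as it did 5.19% of all genes (2.36% higher and 2.83% lower). Leaving it out in voom called 3 of the 37, Mcm10, Tk1 and Mcm6, beside 6.52% of all genes (3.42% higher and 3.1% lower). Groups did not overlap for 0 of the 7 members, beside 15.4% of all genes at that level (6.93% higher and 8.49% lower), and for 3 of the 37, beside 15.6%. The median log2 difference was -0.05 over the 7 members and 0.00157 over all genes tested. A p that misses the threshold does not show that the groups were alike.

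The MCM2-7 helicase genes were not uniform, and p21TKO replicates 2 and 3 carried their higher values. Mcm6 (ENSMUSG00000026355, chromosome 1, 128331590 to 128359664, GRCm38) stood at 0.398, 1.35 and 1.46 FPKM in the libraries labelled p21TKO, against 0.161, 0.0996 and 0.0386 FPKM in those labelled DKO. The means were 1.07 ± 0.584 FPKM in p21TKO libraries and 0.0996 ± 0.061 FPKM in DKO libraries (SD, n = 3 each). They rest on 36, 145 and 184 reads, against 18, 10 and 4 reads. Every p21TKO library lay above every DKO library, which was so for 7.32% of genes averaging at least 10 reads. Its log2 fold on reads was 3.40 (SE 0.90) and did not pass (limma voom adjusted p = 0.549). Without p21TKO replicate 1 it was 4.02 and passed (limma voom adjusted p = 0.0087). Across all alternatives its adjusted p ran from 0.0087 to 0.961. The log2(FPKM + 1) difference was 0.39 within libraries with Y-linked transcripts and 1.05 within those without them. Libraries with Y-linked transcripts are 1 p21TKO and 2 DKO, and those without them 2 p21TKO and 1 DKO, so each such difference, here and for other genes, rests on an arm of 1 library.

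The other helicase subunits separated less. Mcm2 stood at 0.148, 0.351 and 0.829 FPKM in p21TKO libraries, against 0.215, 0.214 and 0.149 FPKM in DKO libraries. Mcm3 stood at 0.454, 1.01 and 1.14 FPKM, against 0.577, 0.458 and 0.492 FPKM in DKO libraries. Mcm7 stood at 1.21, 2.42 and 3.07 FPKM, against 1.61, 1.66 and 1.24 FPKM in DKO libraries. In each of these genes p21TKO replicates 2 and 3 lay above all DKO libraries and p21TKO replicate 1 lay just below the lowest of them, so the groups overlapped. Mcm7 was the only one of them with a mean of at least 1 FPKM, and its log2 difference was 0.33 (SE 0.25, limma adjusted p = 0.647), or 0.14 without p21TKO replicate 3 and 0.58 without p21TKO replicate 1. Mcm7 shares 7.25% of its exon bases with Ap4m1 on the opposite strand. Mcm4 did not share the pattern, with 0.432, 0.570 and 0.885 FPKM in p21TKO libraries, against 0.696, 0.518 and 0.815 FPKM in DKO libraries. Mcm5 had between 22 and 64 reads in p21TKO libraries, against 5 to 31 reads in DKO libraries, and the groups overlapped. On reads, the limma voom adjusted p was 0.708 for Mcm2, 0.681 for Mcm3, 0.953 for Mcm4 and 0.581 for Mcm5. Summed over Mcm2 to Mcm7, the level was 2.93, 5.95 and 7.98 FPKM in p21TKO libraries, against 3.58, 3.03 and 2.79 FPKM in DKO libraries. The sum put p21TKO replicate 1 among the DKO libraries and the other p21TKO libraries above them. It also put the libraries with Y-linked transcripts, p21TKO replicate 1 and DKO replicates 2 and 3, below all those without them. Whether the sum follows the label or Y-linked transcripts was not tested. Size factors for the libraries ran from 1.0 to 1.02, so scaling does not turn this order round.

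Mcm10, whose protein joins the activated helicase to the polymerase that primes DNA, had the widest range of all members. Mcm10 (ENSMUSG00000026669, chromosome 2, 4989714 to 5012791) stood at 31.6, 0.328 and 0.226 FPKM in p21TKO libraries, against 8.78, 23.6 and 10.6 FPKM in DKO libraries. In reads this was 4701, 58 and 47, against 1622, 3899 and 1817. p21TKO replicate 1 held the highest level of all 6 libraries and p21TKO replicates 2 and 3 lay far below every DKO library. The libraries with Y-linked transcripts, p21TKO replicate 1 and DKO replicates 2 and 3, held the 3 highest values. The log2 difference over all libraries was -1.91 (SE 1.25, limma adjusted p = 0.610). Without p21TKO replicate 1 it was -3.46 and passed (limma adjusted p = 0.0113), and limma voom gave -5.49 on reads (adjusted p = 0.0032). Over every alternative tried its adjusted p ran from 0.0032 to 0.969. Its difference in log2(FPKM + 1) was 0.95 within libraries with Y-linked transcripts and -2.94 within those without them. No exon of Mcm10 overlaps an exon of another annotated gene. In the DKO libraries, where Mcm10 alone reached 8.78 to 23.6 FPKM, the other 29 replication members together summed to 28.0, 26.4 and 27.2 FPKM.

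**Figure D3:**
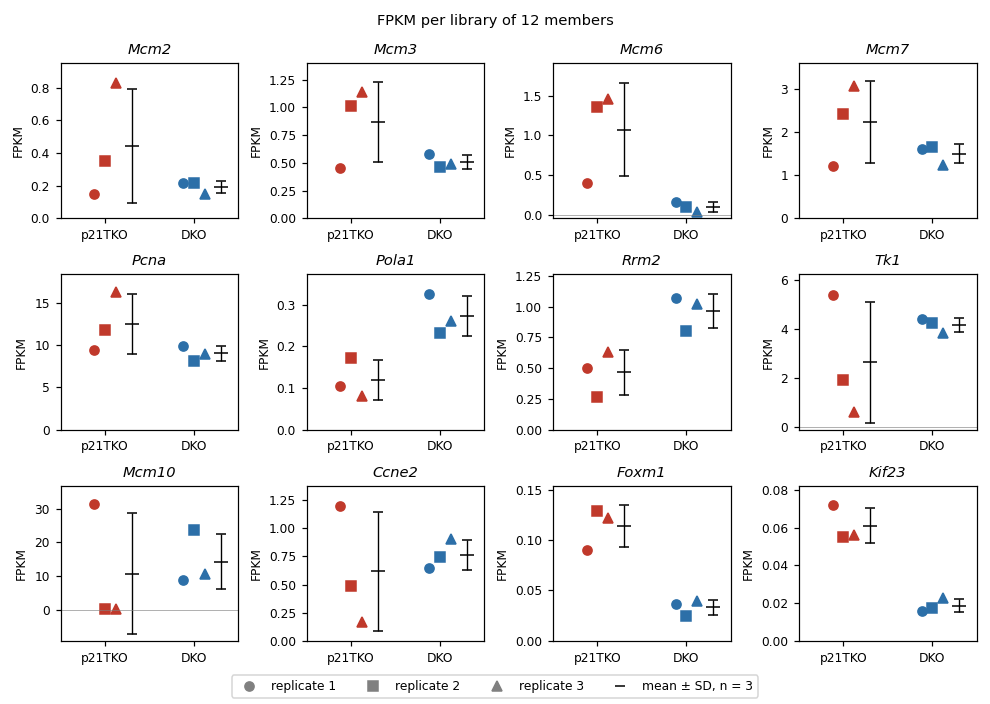
FPKM of 12 members in each p21TKO library (red, left) and each DKO library (blue, right), with the mean and SD of 3 libraries in black. Mcm6, Foxm1 and Kif23 lie wholly higher and Pola1 and Rrm2 wholly lower in the libraries labelled p21TKO, while p21TKO replicate 1 departs from replicates 2 and 3 in Mcm10 and Tk1.

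Genes that load the helicase or switch it on were close to the limit of detection or overlapped between groups. Cdt1, a loading factor, stood at 0.609, 0.597 and 0.730 FPKM in p21TKO libraries, against 0.583, 0.414 and 1.0 FPKM in DKO libraries (limma voom adjusted p = 0.974). Gins1 stood at 1.87, 1.38 and 3.46 FPKM, against 1.70, 1.87 and 1.75 FPKM in DKO libraries (limma, 0.17 in log2, SE 0.24, adjusted p = 0.812). For Gins1, p21TKO replicate 3 lay above all other libraries and p21TKO replicate 2 lay below them. Orc1, an origin recognition subunit, had no reads in p21TKO libraries, which allows up to 0.0319 to 0.0445 FPKM (3 reads, by library), against 1, 2 and 1 reads in DKO libraries. Cdc6 had 0, 0 and 1 reads in p21TKO libraries, against 3, 8 and 1 reads in DKO libraries. Orc1 and Cdc6 count as not overlapping in FPKM, but on so few reads a difference was not detectable at this depth. Gins2, with 4 to 14 reads, and Cdc45, with 18 to 47 reads, overlapped between the groups.

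Genes of DNA synthesis were led by Pcna, the sliding clamp of the replicative polymerases. Pcna (ENSMUSG00000027342, chromosome 2, 132249162 to 132253314) stood at 9.38, 11.8 and 16.3 FPKM in p21TKO libraries, against 9.95, 8.17 and 8.98 FPKM in DKO libraries. Its log2 difference was 0.40 (SE 0.23, limma adjusted p = 0.580), and p21TKO replicate 1 lay among the DKO libraries. Without p21TKO replicate 3 the difference was 0.21. Pcna has annotated processed pseudogenes, so part of its reads may be divided among copies. Pola1, the catalytic subunit of the polymerase that primes DNA (chromosome X, 93304767 to 93632155), ran the other way. It stood at 0.105, 0.173 and 0.0797 FPKM in p21TKO libraries, against 0.326, 0.232 and 0.260 FPKM in DKO libraries. The groups did not overlap, as for 8.3% of genes averaging at least 10 reads that lay lower in p21TKO libraries. Its log2 fold on reads was -1.21 (SE 0.45) and did not pass (limma voom adjusted p = 0.549, from 0.215 to 0.961 over the alternatives). The Pola1 difference in log2(FPKM + 1) was -0.17 within libraries with Y-linked transcripts and -0.24 within those without them.

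Prim1 and Lig1 followed the pattern of Mcm3. Prim1, the catalytic primase subunit, stood at 0.254, 0.766 and 1.11 FPKM in p21TKO libraries, against 0.581, 0.312 and 0.244 FPKM in DKO libraries. Lig1, which seals Okazaki fragments, stood at 0.315, 0.704 and 0.736 FPKM, against 0.351, 0.446 and 0.274 FPKM in DKO libraries. In both, p21TKO replicates 2 and 3 lay above all DKO libraries and p21TKO replicate 1 lay among them (limma voom adjusted p = 0.733 for Prim1 and 0.696 for Lig1). Pola1 and Prim1 sit in the same enzyme complex, yet p21TKO replicates 2 and 3 lay below every DKO library for Pola1 and above every one for Prim1, and neither gene passed. Pole and Fen1 overlapped between the groups, with no more than 39 reads in any library. Fen1 shares 78.8% of its exon bases with a gene on the opposite strand.

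The enzymes of nucleotide supply also differed among themselves. Tk1, thymidine kinase (ENSMUSG00000025574, chromosome 11, 117815526 to 117826092), stood at 5.39, 1.90 and 0.597 FPKM in p21TKO libraries, against 4.42, 4.23 and 3.84 FPKM in DKO libraries. p21TKO replicate 1 lay above the DKO libraries and p21TKO replicates 2 and 3 lay below them. The log2 difference was -0.74 (SE 0.47, limma adjusted p = 0.602). On reads it was -1.2, and without p21TKO replicate 1 it was -1.88 and passed (limma voom adjusted p = 0.0315), with a range of 0.0315 to 0.975 over all alternatives. That fit holds no p21TKO library with Y-linked transcripts. With a sex term on all libraries the fold was -0.76 and did not pass (limma voom adjusted p = 0.716). Within libraries with Y-linked transcripts the Tk1 difference in log2(FPKM + 1) was 0.35, and within those without them it was -1.33. Tk1 shares 1.6% of its exon bases with Afmid on the opposite strand.

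Rrm2, the small subunit of ribonucleotide reductase (chromosome 12, 24708241 to 24714146), stood at 0.503, 0.267 and 0.627 FPKM in p21TKO libraries, against 1.07, 0.805 and 1.02 FPKM in DKO libraries. It lay lower in all p21TKO libraries, with a log2 fold on reads of -1.10 (SE 0.49, limma voom adjusted p = 0.557, from 0.242 to 0.961 over the alternatives). The difference in log2(FPKM + 1) was -0.35 within libraries with Y-linked transcripts and -0.53 within those without them. Its partner Rrm1, the large subunit, stood at 0.375, 0.645 and 1.01 FPKM in p21TKO libraries, against 0.525, 0.456 and 0.511 FPKM in DKO libraries, and the groups overlapped (limma voom adjusted p = 0.820). Tyms, thymidylate synthase, was the most even of the 4 at 0.967, 0.801 and 1.09 FPKM, against 0.916, 0.878 and 1.01 FPKM in DKO libraries (limma voom adjusted p = 0.981).

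None of the G1/S regulators separated the groups. Ccne1, a cyclin E gene, stood at 1.40, 0.540 and 0.389 FPKM in p21TKO libraries, against 0.313, 1.17 and 1.34 FPKM in DKO libraries. The 3 libraries with Y-linked transcripts held the 3 highest Ccne1 values, as they did for Mcm10, Ccne2, E2f1, Slbp and Ccnb2. For Mcm2, Mcm3, Pcna, Prim1, Rrm1, Chaf1a, Bub1b and Kif20a they held the 3 lowest. The share of all genes in either order was not counted, so these lists show no trait of the members. Ccne2, the second cyclin E gene, stood at 1.2, 0.486 and 0.169 FPKM, against 0.643, 0.745 and 0.901 FPKM in DKO libraries. The limma voom adjusted p was 0.920 for Ccne1 and 0.726 for Ccne2. As with Tk1, Ccne2 in p21TKO replicate 1 lay above all DKO libraries and p21TKO replicates 2 and 3 lay below them. Ccne2 shares 17.4% of its exon bases with Ints8 on the opposite strand. E2f1 had 46, 22 and 13 reads in p21TKO libraries, against 33, 53 and 41 reads in DKO libraries, and E2f2 had 5 to 24 reads in any library. Slbp, which binds the end of histone mRNA, was even at 1.98, 1.70 and 1.58 FPKM, against 1.63, 2.21 and 1.74 FPKM in DKO libraries (limma, -0.05 in log2, SE 0.15, adjusted p = 0.913). Uhrf1 and Chaf1a, which act on newly made chromatin, had at most 19 reads in a library, and Chaf1a shares 52.5% of its exon bases with Ubxn6 on the opposite strand. These 2 are the only members on chromosome 17, the chromosome of Cdkn1a.

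Of the mitosis members, 11 had higher and 18 lower mean log2(FPKM + 1) in the libraries labelled p21TKO, with a median difference of -0.0091, against a median of 0.00093 over all genes with a read. Of the replication members, 15 were higher and 15 lower. On recovered reads, where 12 mitosis members averaged at least 10 reads, 0 had a fold above 0 and 12 below, with a median log2 fold of -0.39 and none called by limma voom (0 at an unadjusted p under 0.05). For the 25 replication members with as many reads it was 14 above and 11 below, with a median of 0.066. The median over all genes in that fit was 0.033, and 52.9% of them lay above 0. With a library left out, voom folds rose above 0 in some fit for Aurka, Ccna2, Ccnb2, Cdk1, Top2a, Mki67 and Anln, up to 0.44 for Cdk1. Those of Birc5, Cenpa, Nusap1, Ube2c and Prc1 stayed below 0. Aurka, a spindle pole kinase gene (chromosome 2, 172356190 to 172370535), stood at 1.84, 1.03 and 0.657 FPKM in p21TKO libraries, against 1.51, 1.38 and 0.924 FPKM in DKO libraries (log2 difference -0.09, SE 0.24, limma adjusted p = 0.906). Cenpa, the centromeric histone variant gene, stood at 0.626, 0.216 and 0.284 FPKM, against 0.526, 0.777 and 0.353 FPKM in DKO libraries. Both overlapped, with p21TKO replicates 2 and 3 at the low end for Cenpa (limma voom adjusted p = 0.706).

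Foxm1 and Kif23 were the 2 mitosis members whose groups did not overlap. Foxm1, a transcription factor gene for the G2 to M step (ENSMUSG00000001517, chromosome 6, 128362967 to 128376146), stood at 0.0898, 0.129 and 0.122 FPKM in p21TKO libraries, against 0.0362, 0.0242 and 0.0391 FPKM in DKO libraries. Those values are 10, 17 and 19 reads, against 5, 3 and 5 reads. Kif23, a kinesin gene of the central spindle (ENSMUSG00000032254, chromosome 9, 61915905 to 61946774), stood at 0.0719, 0.0551 and 0.0561 FPKM, against 0.0158, 0.0176 and 0.0228 FPKM in DKO libraries. Those are 11, 10 and 12 reads, against 3, 3 and 4 reads. Both were too low for the read filter, and without a filter they did not pass (limma adjusted p = 0.524 for Foxm1, from 0.0820 to 0.803 over the alternatives, and 0.621 for Kif23, from 0.157 to 0.803). Over all 59 members 3 lay wholly higher, where 5.54% of genes with a read did, and 4 wholly lower, where 6.68% did.

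The groups overlapped for every other mitosis member. Cdk1, the kinase that drives mitosis, had 23, 13 and 17 reads in p21TKO libraries, against 21, 47 and 7 reads in DKO libraries. The mitotic cyclin genes Ccna2, Ccnb1 and Ccnb2 had between 0 and 27 reads. Top2a, which untangles chromosomes, had 19, 8 and 4 reads, against 19, 12 and 3 reads in DKO libraries. Ube2c, an ubiquitin-conjugating enzyme gene of the anaphase step, had 23, 3 and 1 reads in p21TKO libraries, against 14, 22 and 9 reads in DKO libraries. Its log2 fold on reads, -1.62 (SE 1.0), was the lowest among the 12 mitosis members with enough reads (limma voom adjusted p = 0.639), and 22.8% of its exon bases are shared with Tnnc2 on the opposite strand. Nek2 had 4, 0 and 4 reads in p21TKO libraries and none in DKO libraries, and Bub1 had reads in DKO replicate 1 alone. Summed over all mitosis members the level was 5.68, 2.89 and 2.25 FPKM in p21TKO libraries, against 4.89, 4.78 and 2.74 FPKM in DKO libraries. The groups overlapped, and p21TKO replicates 2 and 3 stood near DKO replicate 3. In whole liver, a different number of cycling cells and a different amount of these RNAs per cell cannot be told apart.

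**Figure D4:**
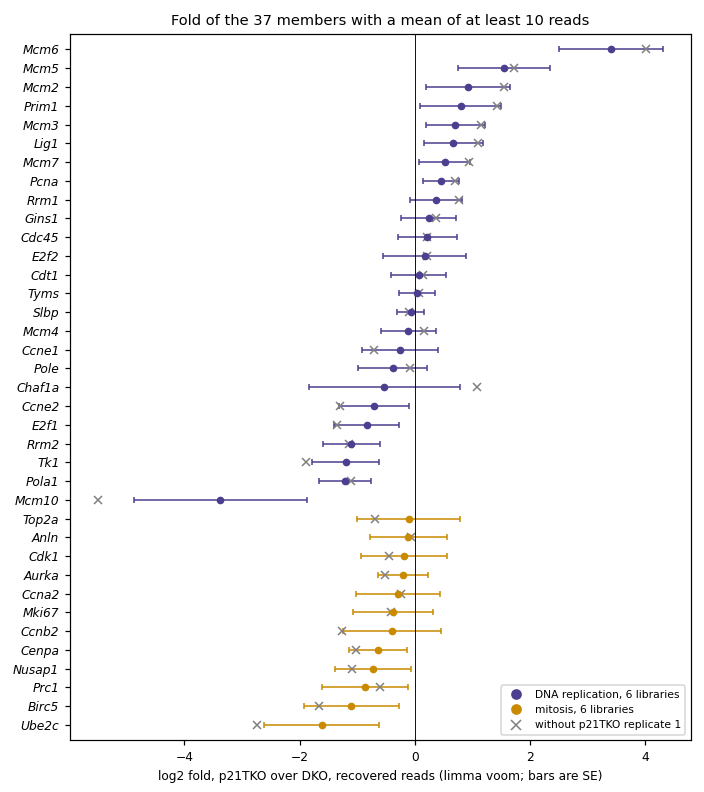
Log2 fold on recovered reads, p21TKO over DKO, with its SE for the 37 members averaging at least 10 reads (limma voom), and the same fold without p21TKO replicate 1 (grey crosses). Folds run from -3.37 for Mcm10 to 3.40 for Mcm6, and none passes in the fit of all 6 libraries.

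Summed without Mcm10, the replication members stood at 28.7, 28.9 and 37.2 FPKM in p21TKO libraries, against 28.0, 26.4 and 27.2 FPKM in DKO libraries. The means were 31.6 ± 4.85 FPKM in p21TKO libraries and 27.2 ± 0.79 FPKM in DKO libraries (SD, n = 3 each). Pcna alone gave 12.5 FPKM of the p21TKO mean and 9.04 FPKM of the DKO mean, and 16.3 FPKM in p21TKO replicate 3. The mitosis sum averaged 3.61 ± 1.82 FPKM in p21TKO libraries and 4.14 ± 1.21 FPKM in DKO libraries (SD, n = 3 each). p21TKO replicate 3 held the highest of these replication sums and the lowest mitosis sum.

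Markers of neutrophils, Kupffer cells and endothelium were highest in p21TKO replicates 2 and 3, the libraries with the highest MCM sums. Neutrophil markers summed to 28.3, 2224 and 710 FPKM in p21TKO libraries, against 78.1, 71.3 and 26.3 FPKM in DKO libraries. Of these markers, 14 of 14 had the higher mean in p21TKO libraries. The defining neutrophil genes Camp, Ltf, Ly6g and Ngp had no reads in at least 1 library. Kupffer cell and macrophage markers summed to 50.5, 443 and 233 FPKM, against 149, 103 and 71.5 FPKM in DKO libraries (12 of 12 higher, none at 0). Liver endothelial markers summed to 8.37, 75.5 and 38.4 FPKM, against 22.0, 12.3 and 14.3 FPKM in DKO libraries (8 of 8 higher, none at 0). In each of these lists the libraries without Y-linked transcripts, p21TKO replicates 2 and 3 and DKO replicate 1, lay above all those with them. The counts of higher means therefore do not separate the label from Y-linked transcripts. The T, B and NK lymphocyte markers ran the other way at 1.48 to 2.89 FPKM, against 3.11 to 5.50 FPKM in DKO libraries, with 10 of 11 lower (Cd3e, Cd79a, Cd79b, Klrb1c and Ms4a1 at 0 in some library). Erythroid precursor markers, a lineage that can divide in liver, summed to 688, 497 and 26.8 FPKM in p21TKO libraries, against 110, 554 and 220 FPKM in DKO libraries (5 of 8 with a higher mean FPKM, 2 lower, 1 at 0 throughout). Of the 5 erythroid markers tested, 1 had a log2(FPKM + 1) difference above 0 and 4 below, with a median of -0.23. Stellate cell markers summed to 24.5 to 36.1 FPKM, against 13.0 to 22.8 FPKM in DKO libraries (4 of 7 higher), and biliary markers to 6.91 to 27.3 FPKM, against 7.003 to 18.5 FPKM in DKO libraries (5 of 5 higher). Hepatocyte markers summed to 49946 to 54455 FPKM, against 37841 to 47974 FPKM in DKO libraries (6 of 8 higher). The part of these cells in the member values was not tested.

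**Figure D5:**
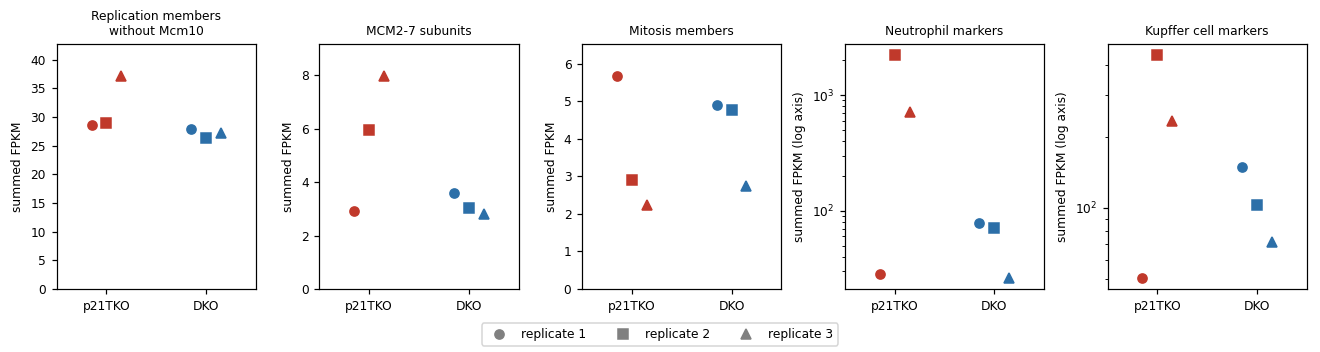
Summed FPKM per library, p21TKO (red, left) and DKO (blue, right), of the replication members without Mcm10, the MCM2-7 subunits, the mitosis members, and the neutrophil and Kupffer cell markers (log axes for both marker panels). p21TKO replicates 2 and 3 are the highest libraries for the MCM2-7 subunits and for both marker lists, and not for the mitosis members.

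Further genes of the same machinery were read from lists. Of 36 other replication genes 22 were tested, 10 higher and 12 lower, and limma called 0 (1 at an unadjusted p under 0.05). Pole4, an accessory subunit of polymerase epsilon, had the smallest p among them at 11.2, 19.3 and 23.6 FPKM in p21TKO libraries, against 8.16, 12.003 and 7.84 FPKM in DKO libraries (log2 difference 0.84, limma adjusted p = 0.523).

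Of 54 other mitosis genes 20 were tested, 9 higher and 11 lower, and limma called 0 (3 at an unadjusted p under 0.05). Pttg1, the securin gene, was the closest at 1.91, 0.414 and 0.406 FPKM in p21TKO libraries, against 9.14, 13.1 and 10.1 FPKM in DKO libraries (log2 difference -2.70, limma adjusted p = 0.0715). Mad1l1, a spindle checkpoint gene, stood at 2.93, 2.85 and 2.98 FPKM, against 1.39, 1.85 and 1.89 FPKM in DKO libraries (0.54, limma adjusted p = 0.515). Groups did not overlap for 5 of the 20, 2 higher and 3 lower, beside 15.4% of all genes at that level (6.93% higher and 8.49% lower). Wee1, the kinase that restrains Cdk1, stood at 4.47, 2.38 and 1.66 FPKM, against 4.84, 5.29 and 7.24 FPKM in DKO libraries (-0.87, limma adjusted p = 0.523).

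Of 18 genes for DREAM, MMB or RB subunits, 13 were tested, 4 higher and 9 lower, with 0 called by limma and 1 at an unadjusted p under 0.05. Lin37, a DREAM subunit, stood at 5.40, 4.99 and 3.67 FPKM in p21TKO libraries, against 2.31, 3.45 and 3.08 FPKM in DKO libraries (0.53, limma adjusted p = 0.523). Of 13 G1 cyclins, kinases and their inhibitors 9 were tested, 5 higher and 4 lower, and limma called 0 (2 at an unadjusted p under 0.05). Cdk6 stood at 1.21, 0.673 and 1.19 FPKM in p21TKO libraries, against 1.87, 1.69 and 1.75 FPKM in DKO libraries, and did not pass (-0.47, limma adjusted p = 0.523).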

How the data were processed

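Liver polyA RNA of 3 p21TKO and 3 DKO libraries was sequenced. The authors deposited FPKM for each gene in each library. The submitters' processing notes list DESeq2 1.20.0, featureCounts 1.5.0-p3, HISAT2 2.0.5, fastp and CASAVA 1.8 with no order, and list GRCh38 and hg38 as builds although gene identifiers are mouse. Coordinates and exon lengths are those of GENCODE M21 (GRCm38). FPKM times exon length gave whole reads within 0.02 reads for 99.3% of values above 0 in each library, and for all 59 members. No source used here states strandedness, so reads of 21 members that share exon bases with another gene, mostly antisense, are uncertain. Chaf1a shares 52.5%, Gins2 67.3% and Fen1 78.8%.

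Genes averaging at least 1 FPKM were tested on log2(FPKM + 1), which understates changes of low genes. The test was limma 3.58.1 (R 4.3.3, trend, two-sided) with Benjamini-Hochberg adjustment. This main fit was also run on simulated data, with changes put only into genes of higher level. That run does not bear on members under 1 FPKM or on the voom fits. limma voom on reads, other filters, pseudocounts, scalings, a replicate block, a sex term from Y-linked genes and leaving out each library were alternatives. The voom combinations and the sum without Mcm10 were added after the values were seen. Members and lists were chosen with earlier results of these data known. Values in every library are given for members averaging at least 1 FPKM, the 14 others with most reads and any whose groups did not overlap, and for up to 4 genes per further list with the smallest p. Some genes are not reported here. Reads of other members were chosen after their values were seen. Limits from 3 reads cover counting error only. Python 3.11.15 and matplotlib 3.10.9 were used.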

Additional observations from a re-analysis of the deposited data

How the results depend on the processing

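Over all genes, calls in p21TKO libraries were 3 higher and 4 lower. The calls were 5 and 5 with a pseudocount of 0.1, 0 and 1 without a filter, 1 and 3 with voom on reads, and 9 and 24 with voom and a sex term. With a replicate block they were 0 and 0, as with the block in voom or without a filter, and as without a filter with a sex term. Deviations of same-numbered libraries correlated at -0.44, -0.49 and -0.07, which gave no sign of pairing by replicate number. Same-numbered libraries always differed in Y-linked transcripts, so this check could not exclude pairing. Leaving out each library gave 0 to 225 higher and 1 to 270 lower, the highest without p21TKO replicate 1, and voom without it gave 456 and 413. Those fits hold no p21TKO library with Y-linked transcripts. Without a filter and without p21TKO replicate 1 the calls were 1 and 1. Members called were 0, or 0 to 1 when a library was left out (Mcm10, without p21TKO replicate 1), and 3 with voom without it (Mcm10, Tk1 and Mcm6). Leaving out each library, the log2 difference ran from -0.085 to 0.37 for Gins1 (lowest without p21TKO replicate 3, -0.23 there with voom), from -0.30 to 0.089 for Aurka (highest without p21TKO replicate 3, 0.043 there with voom) and from -0.11 to 0.033 for Slbp (highest without DKO replicate 2, 0.012 there with voom). Slbp was 0.0052 with a sex term. These 3 genes thus changed sign. Ranges over all alternatives of either fit were taken for the 25 members given in full. Among these the sign also changed for Ccne1 (-0.86 to 0.26), Ccne2 (-1.30 to 0.038) and Cdt1 (-0.28 to 0.41). It did so too for Mcm4 (-0.48 to 0.16), Rrm1 (-0.070 to 0.77) and Tyms (-0.17 to 0.21). Among the other members, leaving out a library in voom changed the sign for Cdk1 (-0.86 to 0.44), Top2a (-0.80 to 0.41) and Ccnb2 (-1.26 to 0.30). It did the same for Ccna2, Mki67, Anln, E2f2, Cdc45 and Chaf1a. The cause was not tested. The summed FPKM difference, p21TKO minus DKO, was 0.80 for replication members (-8.17 to 7.33 when a library was left out, and 4.42 without Mcm10) and -0.53 for mitosis members (-1.56 to 0.15). Mitosis members with under 10 reads limit what could be detected.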
